A study of Mus musculus with 8 samples.

Results

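The fibroblast growth factor (FGF) module described here comprises 39 genes chosen by symbol from the 24063 symbols listed in RNA-Seq tables of mouse kidney tubuloids. They are 22 FGF ligands, the receptors *Fgfr1* to *Fgfr4* and *Fgfrl1*, and genes that damp receptor tyrosine kinase signalling or report on it: *Il17rd*, 3 Sprouty genes, 3 Spred genes, 4 dual-specificity phosphatases and the ETS factor *Etv1*. Tubuloids are epithelial spheroids and tubules that form in Matrigel from pieces of kidney tubule, here of mice of postnatal days 7 to 10 by the labels, where the study's methods give a younger range. All 8 cultures carried the genotype *Pkd2*fl/fl *Pax8*rtTA *TetOCre* mTmG, that is, floxed *Pkd2* alleles, a Cre recombinase inducible in renal epithelium through the *Pax8* promoter, and a red-to-green membrane reporter. The labels name no inducer for these cultures. After plating, 4 cultures (numbers 6, 12, 17 and 22) received glial cell line-derived neurotrophic factor (GDNF) for 24 h and 4 controls (numbers 3, 7, 14 and 21) did not. The medium of both groups contained growth factors, FGF2 among them per the study's methods, and RNA was taken on culture day 7. The comparison asks how the module stood in tubuloids that had been exposed to GDNF and then cultured without it.

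FGFs are secreted ligands that bind receptor tyrosine kinases together with heparan sulfate, or with a Klotho protein in the case of the endocrine FGFs. The receptor signals through the adaptor FRS2, GRB2 and Ras to the kinase ERK. ERK activity in turn induces its own inhibitors, the Sproutys, Spreds, dual-specificity phosphatases and IL17RD (also called Sef), and ETS factors of the *Etv* group. In the kidney, stromal FGF7 and FGF10 act on the epithelial form of FGFR2, and FGF9 and FGF20 maintain nephron progenitors. GDNF acts through RET and its co-receptor GFRA1, which feed the same Ras-ERK route and whose output Sprouty proteins limit.

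Of the 39 genes, 29 were abundant enough to be tested and 10, all of them ligands, were not. None of the 29 differed between the groups at an adjusted p of 0.05 in the quasi-likelihood test of edgeR (Benjamini-Hochberg adjustment, 16557 genes), and neither did any other gene (0% called, lowest adjusted p = 0.167). Judged by an unadjusted p of 0.05, 7 members were higher in the GDNF cultures and 0 were lower, where 9.25% of all tested genes were higher and 12.9% were lower. The 7 were the 4 receptors with a kinase domain, *Fgfr1* to *Fgfr4*, the ligand *Fgf1* and the feedback inhibitors *Il17rd* and *Spred3*. The median log2 fold change (GDNF over control) was 0.27 over the 29 tested members and 0.033 over all tested genes, with 20 members above 0 and 9 below. In 3 members, *Il17rd*, *Spred3* and *Fgfr4*, every GDNF culture lay above every control culture, as it did in 6.99% of all tested genes, with the reverse order in 6.26%. DESeq2, the tool named in the study's methods, gave 1 member an adjusted p under 0.05, *Il17rd* (adjusted p = 0.0261), among the 9170 genes to which it gave an adjusted p. It called 2.3% of those genes higher and 12.4% lower, and 13 of the 29 tested members, *Fgfr3* and *Fgfr4* among them, received none.

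All 7 of these members have long transcripts, between 3146 and 8220 bases for the most abundant one, whereas the median over all tested genes was 2674 bases. Of the 29 tested members, 15 had a transcript of at least 3000 bases and 14 a shorter one, and the 7 were all among the former. The cut of 3000 bases lies just below the shortest of the 7 (3146 bases), so that all 7 fall above it by its placement. Of all tested genes with a transcript that long, 15.4% (1101 of 7134) were higher in the GDNF cultures at an unadjusted p of 0.05. When the trend of each culture's counts with transcript length was removed, 2 members remained above that threshold, *Fgfr4* with a log2 fold change of 0.90 and *Spred3* with 0.39, and *Spred1* was lower by the same threshold (log2 fold change -0.34). In that fit 5.64% of all genes were higher and 12.1% were lower.

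The libraries held 72991721 to 97490625 transcript counts each, so that counting error is small beside the spread between cultures for all but the rarest members. Nothing in the labels says whether the cultures of a group came from separate animals. A p-value here sets the difference between groups against the spread between these cultures, which may be partly technical. The TMM scaling factor, which corrects a library for its most abundant RNAs, was 0.790 in control culture 3, 0.963 to 0.982 in the other controls and 1.07 to 1.11 in the GDNF cultures. Scaled by library size alone, the median of all genes moved up by 0.216 on the log2 scale. All 7 tubule epithelium markers and all 14 stromal markers examined were present. Their summed levels ranged in controls from 447 to 3324 and from 1314 to 6247 CPM (counts scaled to a common library size), and in GDNF cultures from 909 to 1667 and from 1010 to 4000 CPM, respectively. The 6 collecting duct markers summed to between 19.6 and 151 CPM, most of it *Gata3*, *Fxyd4* and *Scnn1b*, while the water channel *Aqp2* was at or below 0.27 CPM in every culture. The 6 endothelial markers summed to between 18.9 and 61.7 CPM, of which *Emcn* made up 17.1 to 50.6 CPM, and *Cdh5* was at or below 1.24 CPM. Cultures were sorted into kinds by the larger of their *Xist* and Y-linked TPM, and each group held 2 of each kind. GDNF culture 12 and control 7 had *Xist* at 68.0 and 52.7 TPM and Y-linked genes at 0. GDNF culture 6 and control 3 were mixed, with *Xist* at 57.4 and 12.5 TPM and Y-linked genes at 6.46 and 1.502 TPM. The other cultures had Y-linked genes at 116 to 194 TPM and *Xist* at or below 0.11 TPM.

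The promoter windows of the 3 members whose groups did not overlap are shown for orientation, from 250 bases before to 50 bases after an annotated start, as given by RefSeq for GRCm38.p6. They lie at chr14:27038751-27039050 on the plus strand (*Il17rd*), chr7:29168598-29168897 on the minus strand (*Spred3*) and chr13:55152568-55152867 on the plus strand (*Fgfr4*), and are written 5′ to 3′ with CG dinucleotides in capitals.
Il17rd: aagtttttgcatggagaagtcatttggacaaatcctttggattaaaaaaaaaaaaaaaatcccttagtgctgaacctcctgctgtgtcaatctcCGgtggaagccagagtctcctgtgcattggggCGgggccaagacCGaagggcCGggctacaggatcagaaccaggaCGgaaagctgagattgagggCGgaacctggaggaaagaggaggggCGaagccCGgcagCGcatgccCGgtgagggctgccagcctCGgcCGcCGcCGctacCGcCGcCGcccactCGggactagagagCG
Spred3: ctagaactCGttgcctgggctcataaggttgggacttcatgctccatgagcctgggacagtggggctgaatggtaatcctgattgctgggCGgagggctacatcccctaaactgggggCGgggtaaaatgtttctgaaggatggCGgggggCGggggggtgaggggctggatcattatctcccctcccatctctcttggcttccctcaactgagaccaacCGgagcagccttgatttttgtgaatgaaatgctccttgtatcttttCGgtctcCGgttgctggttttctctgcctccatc
Fgfr4: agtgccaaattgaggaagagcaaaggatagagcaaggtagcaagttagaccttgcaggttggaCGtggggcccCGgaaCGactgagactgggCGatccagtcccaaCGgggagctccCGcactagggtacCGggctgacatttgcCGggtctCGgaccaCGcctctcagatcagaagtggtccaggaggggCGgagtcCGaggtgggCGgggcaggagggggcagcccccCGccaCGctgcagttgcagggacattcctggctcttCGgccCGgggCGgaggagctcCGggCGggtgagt
*Il17rd* and *Fgfr4* had 19 and 20 CG dinucleotides in these windows and *Spred3* had 8, beside a median of 7 over 32851 such windows of the genome. The core letters of an ETS site, CCGGAA, were searched on both strands. They were found once in the *Fgfr4* window, 178 bases before the start, and not in the other windows printed. They occurred in 14.9% of all windows and in 5 of the 37 windows available for 29 members, namely in *Fgf5*, *Fgf12*, *Fgfr4*, *Fgfrl1* and *Spry2*. Of the other motifs searched on both strands, the AP-1 letters TGANTCA occurred in 2 of the 37 member windows and 7.81% of all windows, TATAAA in 4 and 13.6%, and the cyclic AMP response element TGACGTCA in 0 and 1.79%.

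*Il17rd* (chromosome 14, 27038964 to 27107286, GRCm38) encodes a transmembrane protein that blocks FGF signalling to ERK. In the controls 3, 7, 14 and 21 it measured 10.8, 16.96, 16.3 and 13.2 CPM (TMM-scaled, as are all CPM below), and in the GDNF cultures 6, 12, 17 and 22 it measured 27.5, 18.1, 27.3 and 25.2 CPM. The lowest GDNF culture, number 12, lay just above the highest control, and the other GDNF cultures lay clear of the controls. The means were 14.3 ± 2.85 and 24.5 ± 4.42 CPM (SD, n = 4 each), a 1.71-fold difference. Its log2 fold change was 0.78 ± 0.20 (SE; 95% interval 0.33 to 1.22) in edgeR's quasi-likelihood test, with an unadjusted p of 0.00323 and a Benjamini-Hochberg adjusted p of 0.167. In fits that left out 1 culture, the value stayed between 0.66 and 0.90 and the unadjusted p stayed under 0.05 in 8 of 8 fits. With the trend of transcript length removed, its difference was 0.41 (unadjusted p = 0.0594 in edgeR). *Il17rd* has the longest of the 7 transcripts, 8220 bases.

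*Spred3* (chromosome 7, 29157783 to 29170070) encodes a Sprouty-related inhibitor of the Ras-ERK pathway. It measured 9.07, 11.6, 12.4 and 11.4 CPM in controls 3, 7, 14 and 21 and 13.9, 19.7, 14.8 and 16.3 CPM in GDNF cultures 6, 12, 17 and 22. The groups did not overlap, and control 3 was the lowest of all. The difference was 0.54 ± 0.18 on the log2 scale (SE; 95% interval 0.14 to 0.94; edgeR unadjusted p = 0.0126). The unadjusted p stayed under 0.05 in 7 of 8 fits that left out a culture. The exons of *Spred3* overlap those of *Ggn* on the opposite strand, and the counting is not stated to use strand, so reads of the pair cannot be told apart.

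The other feedback genes were not different at an unadjusted p of 0.05. The Sprouty genes *Spry2*, *Spry3* and *Spry4*, whose products inhibit Ras-ERK signalling, had log2 fold changes of 0.09, 0.72 and 0.18 (SE 0.15, 0.56 and 0.17). *Spry4*, the most abundant of them, measured 56.9, 67.3, 73.2 and 60.1 CPM in controls 3, 7, 14 and 21 and 54.3, 82.4, 83.6 and 71.3 CPM in GDNF cultures 6, 12, 17 and 22. GDNF culture 6 was below all controls for *Spry4*, and cultures 12 and 17 were above all of them. *Spred1* was nearly level, at 127, 139, 166 and 130 CPM in controls and 113, 134, 162 and 155 CPM in GDNF cultures, in the same order of cultures. Its log2 fold change was 0.00, with a 95% interval from -0.35 to 0.35. *Spred2* had a log2 fold change of 0.29 ± 0.15 (SE; unadjusted p = 0.0889 in edgeR).

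*Dusp6* encodes the cytoplasmic phosphatase that removes phosphate from ERK and is a standard readout of FGF signalling. It measured 318, 241, 255 and 231 CPM in controls 3, 7, 14 and 21 and 232, 238, 237 and 226 CPM in GDNF cultures 6, 12, 17 and 22. The GDNF cultures agreed closely, with an SD of 5.52 CPM, and lay within the lower part of the control range apart from culture 22, which was just below it. The log2 fold change was -0.16 ± 0.14 (SE; 95% interval -0.47 to 0.15), turning to 0.07 when libraries were scaled by size alone. The nuclear phosphatases *Dusp4* and *Dusp5* had log2 fold changes of 0.33 ± 0.20 and 0.27 ± 0.24 (SE), and *Dusp7*, a cytoplasmic ERK phosphatase, -0.34 ± 0.27 (SE). *Dusp5* was highest in GDNF culture 17 at 72.7 CPM. *Etv1* measured 39.8, 48.4, 52.0 and 44.8 CPM in controls and 48.8, 49.0, 57.1 and 66.0 CPM in GDNF cultures. Its groups overlapped through control 14, and its log2 fold change was 0.26 ± 0.15 (SE; unadjusted p = 0.12 in edgeR).

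**Figure D1:**
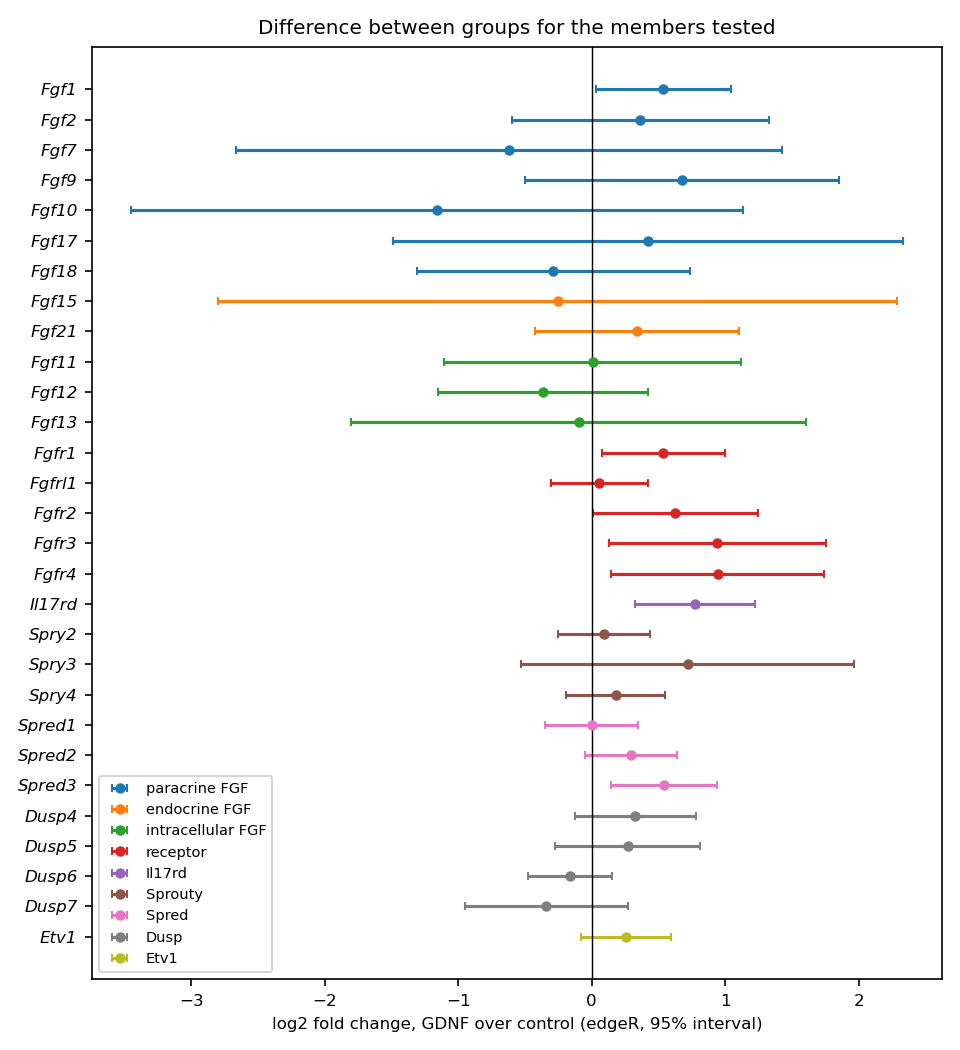
Log2 fold change (GDNF over control, x axis) of the 29 tested members (y axis), coloured by role, with points for edgeR estimates and bars for 95% intervals. The intervals of *Fgfr1* to *Fgfr4*, *Il17rd*, *Spred3* and *Fgf1* lie above 0, and those of *Fgf7*, *Fgf10*, *Fgf13*, *Fgf15* and *Fgf17* are the widest.

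The 4 receptor kinases were all higher in the GDNF cultures at an unadjusted p of 0.05, with log2 fold changes from 0.54 to 0.94, but their patterns over cultures differed. *Fgfr1* (chromosome 8, 25518759 to 25575718), the most abundant receptor, measured 161, 213, 295 and 184 CPM in controls 3, 7, 14 and 21 and 291, 268, 383 and 296 CPM in GDNF cultures 6, 12, 17 and 22. Control 14 overlapped the GDNF group, and the other controls lay below it. The means were 213 ± 58.7 and 309 ± 50.6 CPM (SD, n = 4 each). The log2 fold change was 0.54 ± 0.21 (SE; 95% interval 0.07 to 0.9997; edgeR unadjusted p = 0.0272). It kept an unadjusted p under 0.05 in 4 of the 8 fits that left out a culture, and was at 0.30 with the length trend removed.

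*Fgfr2* (chromosome 7, 130162451 to 130266808), the receptor of FGF7 and FGF10 in epithelium, measured 44.2, 61.9, 48.1 and 40.8 CPM in controls 3, 7, 14 and 21 and 119, 79.3, 49.98 and 52.3 CPM in GDNF cultures 6, 12, 17 and 22. Cultures 6 and 12 were above all controls, while cultures 17 and 22 lay inside the control range. The log2 fold change was 0.63 ± 0.28 (SE; edgeR unadjusted p = 0.0479). *Fgfr3* (chromosome 5, 33721724 to 33737068) measured 7.92, 12.7, 9.09 and 6.36 CPM in controls and 31.3, 9.81, 15.7 and 12.4 CPM in GDNF cultures. Its difference, 0.94 ± 0.36 on the log2 scale (SE; edgeR unadjusted p = 0.0271), came with GDNF culture 6 far above the rest, while control 7 lay above GDNF cultures 12 and 22. *Fgfr4* (chromosome 13, 55152818 to 55168759) measured 4.90, 4.40, 2.94 and 3.89 CPM in controls and 14.3, 6.02, 4.92 and 5.73 CPM in GDNF cultures. The groups did not overlap, but GDNF culture 17 was only just above control 3. The log2 fold change was 0.94 ± 0.36 (SE; edgeR unadjusted p = 0.0251, Benjamini-Hochberg adjusted p = 0.186).

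GDNF culture 6 was the highest culture for *Fgfr2*, *Fgfr3* and *Fgfr4*. Without it, the log2 fold changes were 0.31, 0.49 and 0.46, with unadjusted p of 0.183, 0.106 and 0.0949 in edgeR. Over all 8 fits that left out a culture, they kept an unadjusted p under 0.05 in 3, 5 and 5, respectively. Of the 7 tubule markers, 3 (*Cdh16*, *Pax8* and *Pax2*) were highest in that culture, while *Krt8*, *Krt18* and *Cdh1* were highest in control 21 and *Epcam* in control 3. The summed tubule markers were 1667 CPM in culture 6, below the 3009 and 3324 CPM of controls 3 and 21 and above all other cultures. In controls 3 and 21, *Krt8* (1041 and 1315 CPM) and *Krt18* (1074 and 1216 CPM) made up most of the sum. In culture 6 these 2 keratins measured 285 and 366 CPM. All 6 collecting duct markers were highest in culture 6, with a sum of 151 CPM there and 19.6 to 86.3 CPM elsewhere. The 4 nephron progenitor markers, of which 2 were highest there, summed to 74.0 CPM in culture 6. That sum, mostly *Sall1*, was 50.6 to 73.6 CPM in the other GDNF cultures and 35.9 to 45.3 CPM in controls. Of the 4, 3 had a log2 fold change above 0 and 1 below. The summed stromal markers of culture 6 were the lowest, 1010 CPM. The part of cell makeup in these receptor values was not tested. *Fgfrl1*, a receptor without a kinase domain, was nearly level, with a log2 fold change of 0.06 and a 95% interval from -0.31 to 0.42.

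Between cultures of one kind, with the mixed cultures 3 and 6 counted as *Xist*-expressing, all 7 members were higher on average in the GDNF cultures. The log2 ratios of mean CPM in the *Xist* and the Y-linked cultures were 0.71 and 0.83 for *Il17rd*, 0.70 and 0.39 for *Spred3*, 0.58 and 0.50 for *Fgfr1*, 0.90 and 0.20 for *Fgfr2*, 0.997 and 0.87 for *Fgfr3*, 1.13 and 0.64 for *Fgfr4*, and 0.42 and 0.70 for *Fgf1*. Each ratio compares 2 cultures with 2 and carries no test. The 7 members were picked as higher in these same cultures, so ratios above 0 are no separate support.

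**Figure D2:**
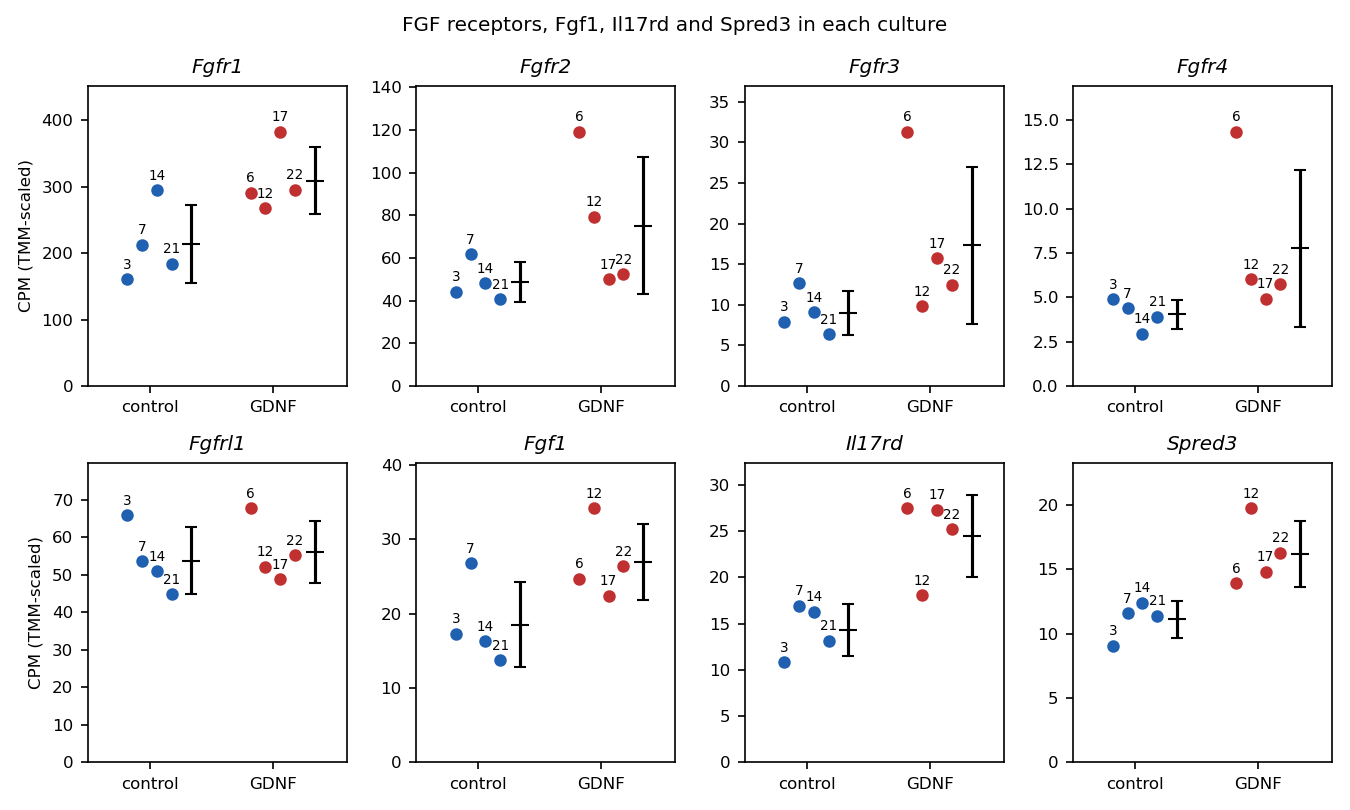
CPM (TMM-scaled, y axis) of the 5 receptor genes, *Fgf1*, *Il17rd* and *Spred3* in each control (blue) and GDNF (red) culture, numbered, with the group mean and SD beside the points. Culture 6 stands above the other GDNF cultures for *Fgfr2*, *Fgfr3* and *Fgfr4*, and the groups are apart for *Il17rd*, *Spred3* and *Fgfr4*.

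The tables list several RefSeq transcripts for most receptors, and reads common to them appear in each. *Fgfr2* was listed as NM_010207 and NM_201601, with 5571 and 5478 counts in GDNF culture 6 and 1603 and 1591 in control 3. Splice forms with different ligand preference can therefore not be told apart. The CPM of *Fgfr1*, *Fgfr2*, *Fgfr3* and *Fgfrl1* sum the shared reads more than once. The same holds for *Etv1*, *Spred1*, *Fgf11*, *Fgf12*, *Fgf13* and *Fgf18* among the other tested members. *Fgfr1* and *Fgfr3* also have exons that overlap a transcript on the opposite strand, and *Fgfr2* shares exon sequence with *Ctbp2* on its own strand.

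Among the ligands, 12 of 22 were tested, 6 with a log2 fold change above 0 and 6 below, with a median of -0.05. *Fgf1*, a ligand that binds all FGF receptors, was the only one with an unadjusted p under 0.05. It measured 17.3, 26.8, 16.3 and 13.8 CPM in controls 3, 7, 14 and 21 and 24.7, 34.2, 22.4 and 26.3 CPM in GDNF cultures 6, 12, 17 and 22. Control 7 lay among the GDNF cultures and the other controls below them. The log2 fold change was 0.54 ± 0.23 (SE; 95% interval 0.03 to 1.04; edgeR unadjusted p = 0.0396). It kept an unadjusted p under 0.05 in 3 of the 8 fits that left out a culture.

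*Fgf7*, the ligand with the highest mean TPM in controls, ranged from 2.31 to 48.3 CPM over the 8 cultures, and this spread did not follow the groups. It measured 9.13, 3.52, 48.3 and 11.6 CPM in controls 3, 7, 14 and 21 and 2.31, 2.71, 30.2 and 12.1 CPM in GDNF cultures 6, 12, 17 and 22. *Fgf10*, its close relative, measured 0.706, 1.44, 14.996 and 4.74 CPM in controls and 0.334, 0.578, 5.71 and 3.17 CPM in GDNF cultures. For both, control 14 was the highest culture, GDNF culture 17 the next, and GDNF cultures 12 and 6 the lowest. The stromal markers followed this order only in part. Of the 14, 10 were highest in control 14 and 9 were lowest in GDNF culture 6, but their sum was 3418 CPM in GDNF culture 12, just after control 14 (6247 CPM) and GDNF culture 17 (4000 CPM). *Dcn* ranked culture 12 next to lowest, as the ligands did, whereas *Col1a1* was highest there. The part of cell makeup in the ligand values was not tested. In bulk RNA, fewer stromal cells and less of these transcripts per cell cannot be told apart. The log2 fold changes were -0.62 ± 0.92 for *Fgf7* and -1.16 ± 1.03 for *Fgf10* (SE), and without control 14 they turned to 0.55 and 0.09.

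*Fgf9* showed another order of cultures. It measured 8.27, 5.22, 1.30 and 4.62 CPM in controls 3, 7, 14 and 21 and 13.2, 7.99, 3.501 and 6.25 CPM in GDNF cultures 6, 12, 17 and 22. GDNF culture 6 and control 3 were the highest and GDNF culture 17 and control 14 the lowest, and the groups overlapped. The difference between the groups was 0.68 ± 0.53 on the log2 scale (SE; edgeR unadjusted p = 0.23).

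**Figure D3:**
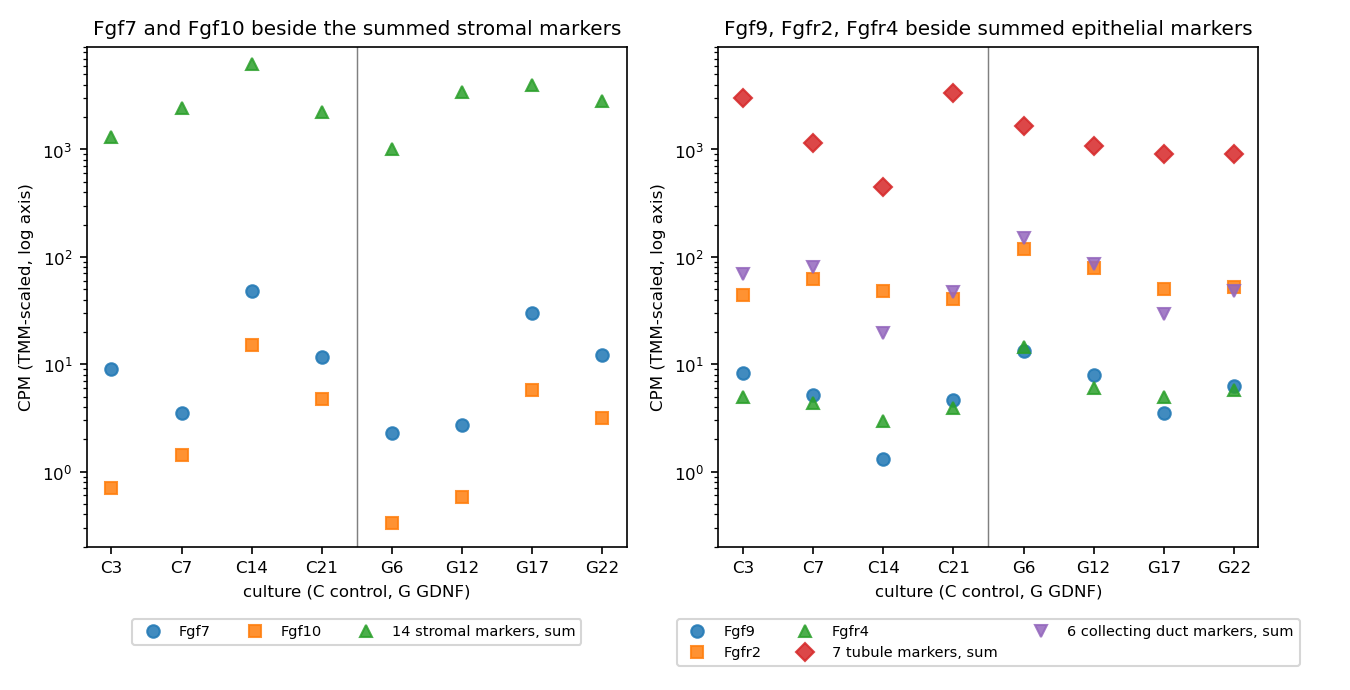
CPM (TMM-scaled, log axis) in each control (C) and GDNF (G) culture of *Fgf7* and *Fgf10* with the sum of the 14 stromal markers (left), and of *Fgf9*, *Fgfr2* and *Fgfr4* with the sums of the 7 tubule and 6 collecting duct markers (right). *Fgf7*, *Fgf10* and the stromal sum are all highest in C14 and lowest in G6 but part in G12. The 3 members on the right and the collecting duct sum are highest in G6. The tubule sum, mostly *Krt8* and *Krt18* in C3 and C21, is highest in C21.

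The remaining tested ligands were low and did not differ at an unadjusted p of 0.05. *Fgf2*, which was also in the medium as protein, measured 0.631 ± 0.267 CPM in controls and 0.813 ± 0.258 CPM in GDNF cultures (SD, n = 4 each), and its exons overlap those of *Nudt6* on the opposite strand. *Fgf18* measured 6.33 ± 3.503 and 5.19 ± 2.51 CPM in the same order. The endocrine ligands *Fgf15* and *Fgf21* averaged 0.228 and 1.03 CPM in controls and 0.192 and 1.30 CPM in GDNF cultures. The intracellular FGF homologues *Fgf11*, *Fgf12* and *Fgf13*, which do not act through FGF receptors in the classical way, had log2 fold changes of 0.01, -0.36 and -0.10.

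The 10 ligands below the filter were *Fgf3*, *Fgf4*, *Fgf5*, *Fgf6*, *Fgf8*, *Fgf14*, *Fgf16*, *Fgf20*, *Fgf22* and *Fgf23*. *Fgf8*, a ligand of nephron formation, had 0 counts in all 4 controls and in GDNF cultures 12 and 17, 69 counts in GDNF culture 6 and 16 in culture 22. These are sums over its listed transcripts, in which shared reads are repeated. Each single transcript had 17 or 18 counts in culture 6 and 4 in culture 22. A count of 0 still allows up to 3 counts in a library. *Fgf4*, *Fgf6* and *Fgf20* had counts in 1 culture each, 1, 1 and 7. The other 6 reached at most 54 counts in any culture (*Fgf14* in GDNF culture 6, with 27 for each of its transcripts). For these 6, exact two-sided permutation tests over the 70 assignments of cultures gave p from 0.171 to 0.714. The smallest p this test allows is 0.0286.

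Levels were compared between genes only per length, on the authors' length-normalized transcript abundance (TPM) of each gene's most abundant transcript. *Dusp6* had the highest level, 140 ± 6.05 TPM in controls (SD, n = 4), and its lowest control culture, at 133 TPM, was above the highest for *Dusp5*, at 70.3 TPM. *Dusp5* followed at 53.7 ± 15.4 TPM and *Spred1* at 27.9 ± 6.17 TPM. *Fgfr1* (22.02 ± 7.85 TPM), *Spry4* (21.6 ± 4.90 TPM) and *Dusp4* (18.4 ± 4.69 TPM) did not differ from their neighbours beyond the spread of cultures. *Dusp7* and *Fgfrl1* came next at 16.1 and 15.5 TPM. Among the receptors, *Fgfr2* (7.22 ± 1.90 TPM), *Fgfr4* (1.92 ± 0.336 TPM) and *Fgfr3* (0.650 ± 0.232 TPM) followed *Fgfr1*. Among the ligands, *Fgf7* (10.6 ± 12.5 TPM) and *Fgf1* (7.23 ± 2.58 TPM) stood above *Fgf18* (2.99 ± 1.74 TPM). The place of *Fgf7* rested on control 14, without which its mean was 4.52 TPM and that of *Fgf1* 7.41 TPM. In controls, 23 of the 39 members reached a mean of 1 TPM. TPM is not corrected for the composition that TMM corrects, and *Dusp6* was higher in GDNF cultures on this scale (166 ± 7.71 TPM) but not in CPM with TMM scaling.

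**Figure D4:**
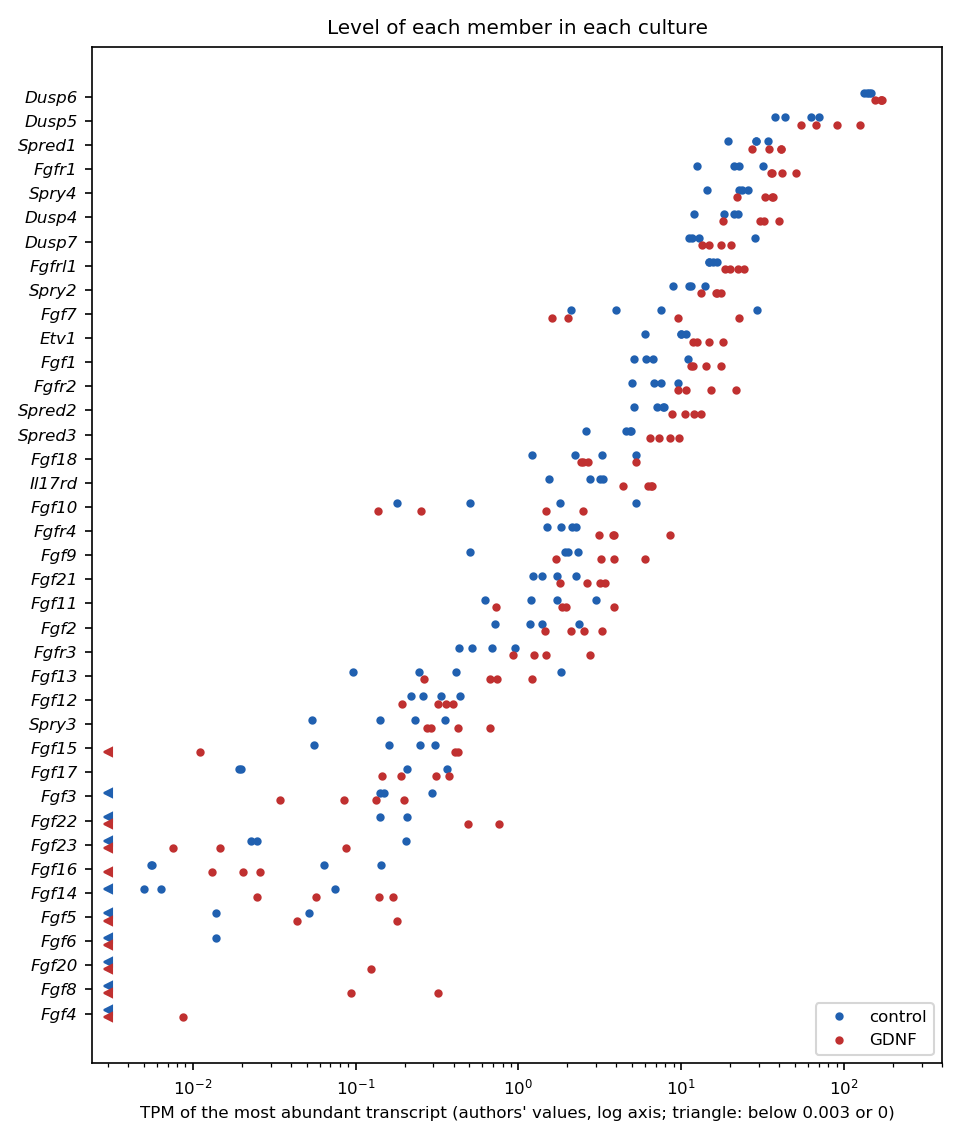
TPM of the most abundant transcript of each of the 39 members (y axis, ordered by control mean) in each culture, on a log axis, with controls in blue, GDNF cultures in red and triangles for values of 0 or below 0.003. *Dusp6* is highest, the feedback genes fill most of the upper places, and the ligands that could not be tested lie at the bottom.

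The rest of the pathway was read from 4 lists with 79 genes, of which 78 were tested. At an unadjusted p of 0.05 in edgeR, 10 (12.8%) were higher and 8 (10.3%) were lower in the GDNF cultures, near the 9.25% and 12.9% of all genes, and the median log2 fold change over the 78 was 0.19. The median transcript of these genes was 4319 bases long, and of all genes with at least 3000 bases 15.4% were higher. By library size alone the split was 24 higher and 4 lower. Under that scaling the median of all genes also moved up, and the shares of all genes were not taken. The counts for single lists below are a description and were not set apart from these shares. Among the 23 adaptor and MAP kinase genes, 2 were higher and 3 lower. *Gab1*, a docking protein of receptor kinases, was higher by a log2 fold change of 0.65 ± 0.15 (SE), and *Braf*, a kinase that activates MEK, by 0.64 ± 0.26. *Map2k1* (MEK1), *Hras* and the adaptor *Grb2* had log2 fold changes of -0.64 ± 0.16, -0.61 ± 0.20 and -0.40 ± 0.15. *Frs2*, an adaptor of FGF and neurotrophin receptors, was at 0.32 ± 0.24 and did not pass.

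Among the 28 co-receptor and heparan sulfate genes, 3 were higher and 4 lower. *Fgfbp1*, which releases FGFs from heparan sulfate, measured 22.4, 4.48, 15.3 and 27.2 CPM in controls 3, 7, 14 and 21 and 2.85, 4.15, 6.60 and 5.93 CPM in GDNF cultures 6, 12, 17 and 22. Control 7 lay among the GDNF cultures, and the log2 fold change was -1.83 ± 0.49 (SE). The heparan sulfate proteoglycan *Sdc1* was at -0.66 ± 0.17, *Sdc4* at -0.58 ± 0.19, while *Hspg2* (perlecan) was at 0.54 ± 0.17 and *Gpc2* at 0.75 ± 0.25. *Klb*, the co-receptor that FGF15 and FGF21 need, had counts in 2 of the 8 cultures and at most 0.0554 CPM, and *Kl* was at most 0.917 CPM.

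Of 19 further feedback and ETS genes, 4 were higher and 1 was lower. *Lrig3*, of a family that modulates receptor kinases, measured 14.03, 14.95, 14.1 and 16.5 CPM in controls and 21.5, 24.3, 25.2 and 31.4 CPM in GDNF cultures, a log2 fold change of 0.78 ± 0.16 (SE) without overlap. The ubiquitin ligase *Cbl*, the Ras inhibitor *Nf1* and the phosphatase *Dusp16* were higher by 0.50, 0.59 and 0.35 on the log2 scale, and *Dusp3* was at -0.65. *Spry1*, which restrains GDNF signalling in the nephric duct, *Etv4* and *Etv5*, ETS genes downstream of RET, had log2 fold changes of 0.31, 0.30 and 0.26 and did not pass, with unadjusted p of 0.0788, 0.0805 and 0.0813 in edgeR. Of the 9 genes for other receptor kinases, the GDNF receptor and the ligands *Gdnf*, *Hgf* and *Egf*, only *Gfra1*, the co-receptor of GDNF, was higher at that threshold, with a log2 fold change of 0.57 ± 0.21. *Ret* was at 0.42 ± 0.35.

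**Figure D5:**
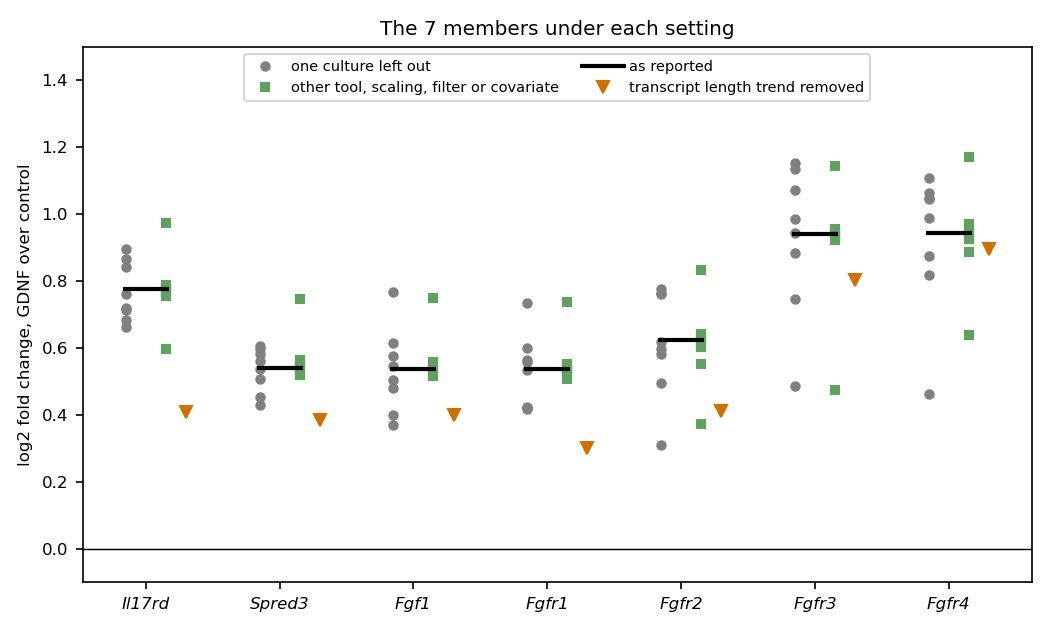
Log2 fold change (GDNF over control, y axis) of the 7 members under each way of processing, with a bar for the value reported, grey points for fits without 1 culture, green squares for other tools, scalings, filters or the *Xist* covariate, and orange triangles with the length trend removed. All values are above 0, and those of *Fgfr2*, *Fgfr3* and *Fgfr4* spread the most when 1 culture was left out.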

How the data were processed

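RNA-Seq was analysed for 4 GDNF and 4 control tubuloid cultures, grouped by the treatment label and the sample title. The groups share no culture number, so the comparison was unpaired. SMART-Seq v4 libraries with poly-A selection were sequenced, and the submitters' processing notes name STAR, featureCounts and DESeq2 with mm10 (GRCm38). Versions, strand handling and the lane of each culture are not given in the sources used here. The authors deposited raw whole-number counts for each RefSeq transcript. The deposited FPKM equal the count over transcript length and library total, and served only to recover lengths, which were whole within 0.01 bases for 100% of transcripts. The deposited TPM are scaled by the authors over all listed transcripts to the same total per culture, and were used for levels. Reads shared by transcripts of a gene appear in each.

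Counts were summed per symbol and fitted with edgeR 4.0.16 in R 4.3.3 (filterByExpr, TMM, glmQLFit, glmQLFTest, two-sided, Benjamini-Hochberg adjustment over 16557 genes). The standard error was the log2 fold change divided by the square root of F, and intervals used the t distribution of the same fit. Alternatives were limma 3.58.1 (voom with quality weights), DESeq2 1.42.0, other scalings and filters, an *Xist* covariate, per-culture splines of log count on transcript length (5 degrees of freedom) as offsets, and leaving out each culture. The scripts were tested on simulated counts. Overlapping genes are from GENCODE M21 and gene positions from RefSeq, both for GRCm38.

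Values are given for each culture for members with an unadjusted p under 0.05 or no overlap between groups and for the most abundant member of each role, and for other pathway genes by p, at most 5 per list. *Fgf9*, *Fgf10*, *Frs2*, *Klb*, *Kl*, *Spry1*, *Etv4*, *Etv5* and *Ret* were named after their values were seen. The members and the gene lists were chosen with earlier results of these data known. Other experiments of the study were not analysed here. Python 3.11.15 with NumPy 2.4.6, pandas 2.3.3 and matplotlib 3.10.9 was used for summaries and figures.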

Additional observations from a re-analysis of the deposited data

Results flagged for a closer look

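In 3 of 58 groups of 4 cultures, 1 culture stood apart from the others by Dixon's criterion, where chance gives about 2.9, and all 3 cases were GDNF culture 6. *Fgfr4* measured 14.3 CPM there and 4.92 to 6.02 CPM in the other GDNF cultures. *Fgf18* measured 8.93 CPM there and 3.62 to 4.25 CPM in the others, while 2 controls were at 8.84 and 9.69 CPM. *Spry2* was low there, at 14.8 CPM against 17.2 to 17.4 CPM. In that culture 6 of 6 collecting duct, 3 of 7 tubule and 2 of 4 nephron progenitor markers were at their highest. The summed stromal markers (1010 CPM) were the lowest there. The summed tubule markers of culture 6 (1667 CPM) were below those of controls 3 and 21 (3009 and 3324 CPM), which were mostly *Krt8* and *Krt18*. The part of cell makeup in these values was not tested.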

How the results depend on the processing

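At an adjusted p of 0.05, DESeq2 called 1 member and at 0.1 it called 3, while edgeR called 0 under either, and 0 in each fit without a culture. The count of members higher at an unadjusted p of 0.05, 7 as reported, was 3 with limma-voom and 2 with the transcript length trend removed. Over all 11 alternative settings that kept every culture, this count ranged from 2 to 10. It lay between 2 and 7 when a culture was left out, with 2 without control 21, 3 without control 3 and 4 without control 14. The count of lower members became 1 with the *Xist* covariate (*Fgf10*) and 1 with the length trend removed (*Spred1*). For the other pathway genes, reported as 10 higher and 8 lower, 5 were lower with limma-voom, 24 were higher and 4 lower by library size, and 6 were higher with the length trend removed. Without a culture, 5 to 12 were higher and 5 to 10 lower. The number of members whose groups did not overlap was 10 in the authors' TPM, 6 by library size and 3 to 7 without a culture. All genes were counted in this way only with TMM scaling and all cultures, with 6.99% higher and 6.26% lower. The counts by p above have a share of all genes only for the reported fit, DESeq2 at 0.05 and the length trend. For the other settings, a change in the members was not set apart from one in all genes.

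Directions turned in some members that did not differ at an unadjusted p of 0.05. *Fgf11* was at -0.0177 (log2) with DESeq2, -0.0178 with its size factors and -0.0079 with the length trend removed. *Fgf13* was at 0.20 with limma-voom, 0.0704 by library size and 0.0317 with the covariate. *Spred1* was at 0.0295 with limma-voom, 0.0229 with upper-quartile scaling, 0.21 by library size and 0.0144 with a filter at a mean of 1 CPM. *Dusp6* was at 0.0699 by library size and *Spry4* at -0.0359 with the length trend removed. Without a culture, the ranges were -0.064 to 0.17 for *Fgfrl1*, -0.0802 to 0.0912 for *Spred1*, -0.47 to 0.46 for *Fgf11*, -0.96 to 0.16 for *Fgf15*, -0.46 to 1.01 for *Fgf13*, -2.01 to 0.0913 for *Fgf10*, -1.67 to 0.55 for *Fgf7* and -0.0162 to 0.17 for *Spry2*. The cause was not tested. No paired analysis was made because the groups share no culture number. The labels do not say whether a control and a GDNF culture came from the same preparation of tubules. If some did, the unpaired standard errors also carry the spread between preparations. Depth limits the ligands below the filter and the rarest tested members, such as *Fgf15* (0 counts in GDNF culture 17) and *Fgf17* (2 counts in controls 3 and 7).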
